A study of Mus musculus with 24 samples.

Results

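Iron handling was followed through 10 genes in MLO-Y4 cells, a mouse cell line described as osteocytic, the osteocyte being the cell embedded in bone matrix. The genes were Tfrc, Steap3, Slc11a2 and Slc39a14 for uptake, Fth1 and Ftl1 for storage, Slc40a1 for export, Hmox1 for release of iron from haem, and Aco1 and Ireb2 for regulation. Each was read from the row (probe set) that the array's annotation gives to that gene symbol alone. All 10 had exactly 1 such row, so they are 10 of 19938 genes with a row of their own. A gene was tested if its row reached the 40th percentile of its array on at least 3 of 24 arrays, which 14489 genes did. Among the iron genes 9 passed this filter, and Slc40a1 did not.

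The 24 arrays fall into 8 groups of 3. Cells in the IgG arm received an irrelevant rabbit IgG. Cells in the E2 arm received Cx43(E2), an antibody against connexin 43 that blocks hemichannels, the unpaired membrane channels through which a cell exchanges small molecules with its surroundings. Each arm was then kept in an incubator (C) or at the 1g, 2g or ug (μg in the labels) position of a platform with a high magneto-gravitational environment. All groups were of the same cell line and all had received an antibody. For every group 30 minutes with antibody, 37 °C and 5% CO2 are given, and for the E2 antibody 28 micrograms per ml. How long cells stayed at a position is not given in the sources used here. The positions share the platform, so against the incubator the platform, its field and the labelled gravity cannot be told apart.

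Iron enters most cells on transferrin, which binds the transferrin receptor and is taken into endosomes, where iron is reduced and moved to the cytosol. Spare iron is stored inside a ferritin shell of heavy and light chains, and ferroportin is the exporter. When iron is scarce, the iron regulatory proteins IRP1 and IRP2 bind stem-loops in messenger RNAs, which protects the transferrin receptor message and holds back translation of ferritin. Transcript levels of Tfrc can therefore follow iron directly, while much of ferritin's control acts on translation, which an array does not measure.

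Of 7 osteocyte markers 4 passed the filter, among them Gja1 (connexin 43, mean log2 level 11.68) and Pdpn (podoplanin, 12.70). Dmp1, Phex and Mepe, which mark osteocytes in bone, had mean levels between 4.60 and 4.74 and did not pass. The leukocyte gene Ptprc (5.12) and the macrophage gene Adgre1 (4.58) did not pass either, whereas the macrophage list's other 5 of 7 genes did. The summed intensity of that list lay between 1184 and 1610 over all groups. The median log2 level of an array was 6.48 to 6.65. A set here means the 4 arrays, 1 per environment, with the same arm and title number, for example IgG 1. Within an arm, all 36 pairs of arrays with the same number deviated from their group means together (correlation 0.195 to 0.812). The first principal component of the tested genes held 44.6% of the variance and put IgG 1, IgG 2 and E2 3 on one side of 0, and IgG 3, E2 1 and E2 2 on the other. No label says that replicates were separate cultures, so p-values measure only the spread between these arrays.

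RefSeq's table of promoter windows (GRCm38.p6, 250 bases before to 50 after a start) held 11 windows for 6 of the 10 genes. The stretches shown belong to Tfrc and Ireb2, the members with the highest correlation once each set's mean was removed. Tfrc has 2 listed starts, and its stretch at chr16:32608872-32609021 (+ strand) runs from 250 to 101 bases before the second. The same stretch spans the first start. That of Ireb2 at chr9:54863605-54863754 (+ strand) covers the 150 bases before its start. Capitals mark matches to motifs.
Tfrc: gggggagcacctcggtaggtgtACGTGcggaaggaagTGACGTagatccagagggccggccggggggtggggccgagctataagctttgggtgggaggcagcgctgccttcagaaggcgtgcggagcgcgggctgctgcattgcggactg
Ireb2: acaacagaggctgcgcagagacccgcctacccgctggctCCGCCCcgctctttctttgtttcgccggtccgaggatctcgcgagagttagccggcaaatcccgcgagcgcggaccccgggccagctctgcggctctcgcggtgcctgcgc
The Tfrc stretch was 67.3% G and C and held ACGTG, the core of the hypoxia response element, and TGACGT, part of the cyclic AMP response element. Counted from the first start, the same ACGTG begins at -2 and the same TGACGT at 14, after that start. The Ireb2 stretch was 69.3% G and C, and its capitals are the reverse complement of the GC box GGGCGG. With both strands searched, ACGTG occurs in 19.6% of 32851 whole windows, TGACGT in 7.51% and GGGCGG in 35.7%. A whole window is longer than the 150 bases shown, so these are not the shares for such stretches. The ACGTG and TGACGT matches do not overlap. Among the members, ACGTG and TGACGT were matched in Tfrc, TATAAA in Fth1 and Ftl1 (13.6% of all windows), and GGGCGG in all 6 genes with a window. The antioxidant core TGACNNNGC (12.4% of windows) matched no member's window.

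Of the uptake genes, Tfrc, the transferrin receptor (probe set 10435075), varied most. Its values are log2 levels, given here in the order C, 1g, 2g, ug. Set IgG 1 read 10.86, 10.63, 10.67 and 10.86. Set IgG 2 read 10.96, 10.69, 10.48 and 10.68, and IgG 3 read 10.44, 10.44, 10.53 and 10.28. Sets E2 1 and E2 2 held the 8 lowest arrays. Set E2 1 read 9.94, 9.41, 9.74 and 9.69, and E2 2 read 10.13, 9.90, 9.86 and 9.95. Set E2 3 read 10.66, 10.74, 10.89 and 10.66, inside the range of the IgG arrays. The arms therefore overlapped in every environment, through E2 3 alone. From lowest to highest array Tfrc spanned 1.54, a wider range than 98.4% of tested genes had.

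The other uptake genes moved less. Slc39a14, which encodes ZIP14, a transporter of iron not bound to transferrin (10421309), lay between 10.56 and 11.24. It was highest in the sets where Tfrc was lowest within its arm, IgG 3 and E2 1. Its set means were 10.70, 10.62 and 11.00 in IgG 1, 2 and 3, and 11.18, 10.96 and 10.67 in E2 1, 2 and 3. Steap3, the endosomal ferrireductase that prepares iron for release (10357249), lay between 9.17 and 9.65. The lowest set of Steap3 was IgG 1 (mean 9.26 ± 0.06, SD over 4 environments) and the highest IgG 3 (9.53 ± 0.09). Slc11a2, which encodes DMT1, the carrier that moves iron out of the endosome (10432573), lay between 10.67 and 11.12. Its lowest array was E2 1 at ug and its highest was IgG 2 at 2g.

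The signals of the storage genes were nearly constant on these arrays. Fth1, the ferritin heavy chain with the iron-oxidizing centre (10461402), lay between 13.40 and 13.55, a range of 0.15, and 0.131% of tested genes had a smaller range. Fth1 in the incubator read 13.52, 13.55 and 13.53 in the IgG arm and 13.40, 13.43 and 13.43 in the E2 arm. At 1g it read 13.47, 13.43 and 13.44 with IgG and 13.40, 13.42 and 13.49 with E2, so the arms overlapped there. At 2g it read 13.51, 13.46 and 13.49 with IgG and 13.46, 13.52 and 13.48 with E2. At ug it read 13.53, 13.51 and 13.45 with IgG and 13.46, 13.43 and 13.46 with E2. The arms' Fth1 arrays did not overlap in the incubator, as was so for 35% of all genes there, and overlapped at each position. Both ferritin chains were above the 99th percentile of every array, and the highest value of any row was 14.06. The part of signal level in their small ranges was not tested.

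Ftl1, the ferritin light chain that aids mineral formation (10447591), lay between 13.13 and 13.31, and 0.4% of genes had a smaller range. In the E2 arm Ftl1 read 13.18, 13.21 and 13.25 in the incubator and 13.23, 13.23 and 13.21 at 1g. It read 13.29, 13.27 and 13.28 at 2g and 13.24, 13.29 and 13.31 at ug. The 2g arrays were above all incubator and all 1g arrays (4.79% and 4.8% of all genes were likewise apart), and the ug arrays were above all 1g arrays (5.76%). In the IgG arm no position of Ftl1 stood apart from the incubator. A further 4 rows list Ftl1 with other symbols. Of these, 3 had means between 13.19 and 13.30 and correlated with the Ftl1 row at 0.919 to 0.964 over 24 arrays, so signal of Ftl1 and of near-identical copies cannot be told apart.

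Slc40a1, ferroportin, the iron exporter (10354374), was dim on every array, between 4.54 and 5.24 and between the 16.5th and 27.3rd percentile of its array. It was therefore not tested in limma, and no size of a difference between its groups is given. The exact permutation test on set means, used below, covers all 10 genes and so includes it.

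Hmox1, haem oxygenase 1, which opens the haem ring and frees its iron (10572897), had the widest range of the 10, from 11.08 to 12.69. Its sets fell into separate levels. Set IgG 1 read 12.17, 12.24, 12.09 and 12.38 in the order C, 1g, 2g, ug, IgG 2 read 12.39, 12.49, 12.53 and 12.46, and E2 3 read 12.49, 12.57, 12.69 and 12.64. Set IgG 3 read 11.21, 11.14, 11.34 and 11.80, E2 1 read 11.13, 11.52, 11.35 and 11.66, and E2 2 read 11.17, 11.08, 11.15 and 11.66. The lowest array of the first 3 sets (12.09) was above the highest array of the other 3 (11.80).

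Aco1 encodes cytosolic aconitase, which becomes IRP1 when it loses its iron-sulfur cluster (10503966), and it lay between 10.24 and 10.64. Set E2 3 was highest (mean 10.62 ± 0.02, SD over 4 environments) and E2 1 lowest (10.35 ± 0.09). Ireb2 encodes IRP2, which is degraded when iron is plentiful (10585444), and it ranged from 7.50 to 8.86. Ireb2 in the order C, 1g, 2g, ug read 8.70, 8.32, 8.30 and 8.72 in IgG 1, and 8.86, 8.26, 8.19 and 8.48 in IgG 2. It read 8.65, 8.39, 8.43 and 8.21 in IgG 3. In the E2 arm it read 8.30, 7.50, 7.93 and 7.94 in E2 1, then 7.85, 8.04, 7.69 and 7.68 in E2 2, and 8.11, 8.24, 8.40 and 8.07 in E2 3. Every E2 array of Ireb2 was below every IgG array of the same environment, except at 2g.

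**Figure D1:**
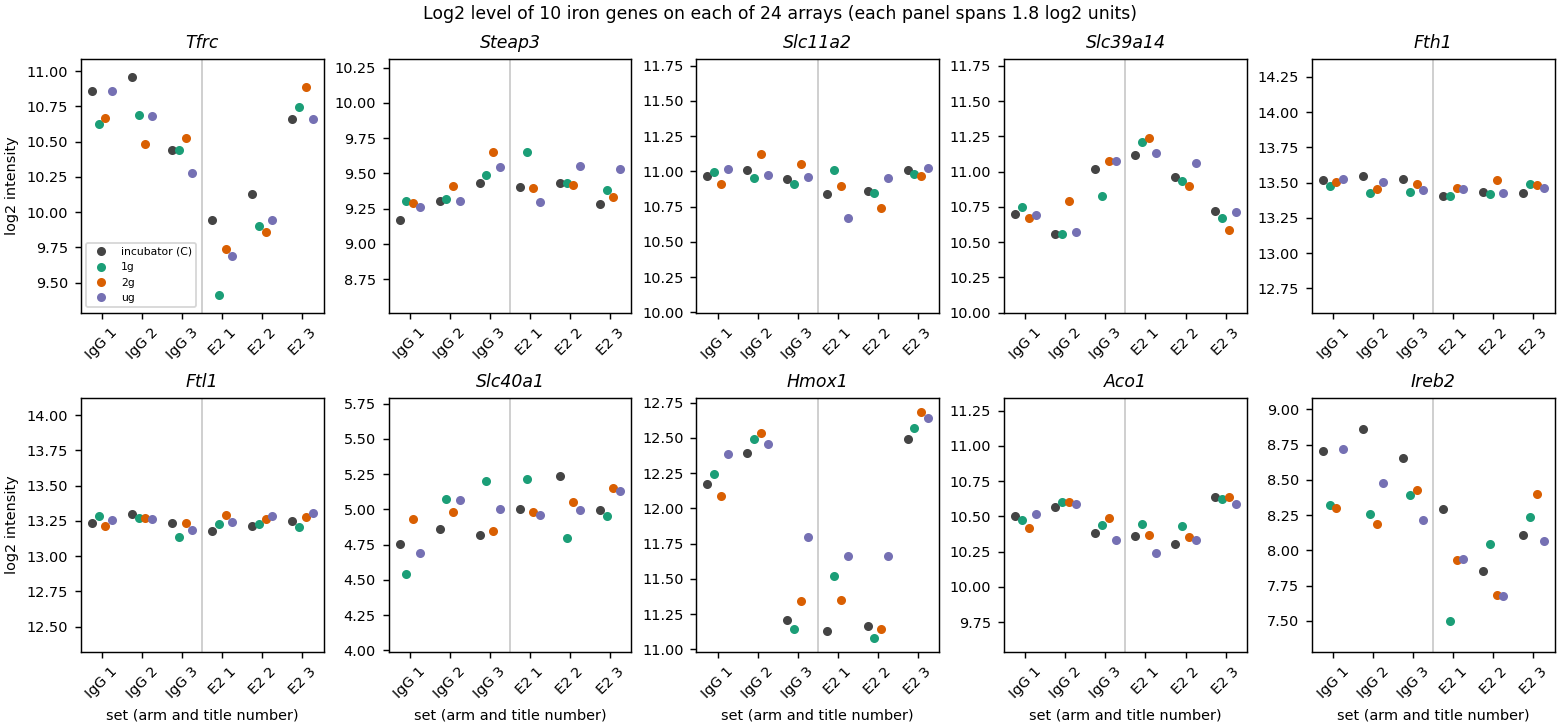
Log2 level (y axis) of the 10 iron genes on each of 24 arrays, by set of arm and title number (x axis), with colours for environments and 1.8 log2 units per panel. Hmox1 separates 3 sets above 12.09 from 3 sets below 11.80, Tfrc is lowest in E2 1 and E2 2, and Fth1 and Ftl1 stay within 0.15 and 0.18.

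Differences between sets were common on these arrays. A moderated F test in limma over the set terms within arms called 41.9% of all 14489 genes and, near that share, 5 of the 9 iron genes tested. Hmox1 had the largest F (102, adjusted p = 5.54e-11), followed by Tfrc (43.4, adjusted p = 3.66e-08). Slc39a14 (adjusted p = 2.5e-07), Aco1 (2.12e-05) and Steap3 (0.0129) also passed. Slc11a2, Fth1, Ftl1 and Ireb2 did not, at adjusted p between 0.127 and 0.494. For each gene, the spread left after each group's mean was removed was also split. The share of it that lay between sets was 95.6% for Hmox1, 90.9% for Tfrc, 90.3% for Slc39a14 and 89.0% for Aco1. The median gene had 48.9%. In the E2 arm the gap between the highest and lowest set mean was 1.04 for Tfrc and 1.33 for Hmox1. In the IgG arm it was 0.33 for Tfrc and 1.09 for Hmox1. For Ireb2 it was 0.09 in the IgG arm and 0.39 in the E2 arm. With group means removed, 37.2% of the remaining spread of Ireb2 lay between sets.

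The summed intensity of the osteoblast list moved with these sets. Of its 6 genes 4 had a row and 2 passed the filter, Alpl (mean log2 level 10.34) and Col1a1 (9.77). Sp7 (5.62) and Ibsp (5.06) did not pass, so the sum comes mostly from Alpl and Col1a1. It was 2438 to 3034 in IgG 3, E2 1 and E2 2, and 1697 to 2029 in IgG 1, IgG 2 and E2 3. The low group of Hmox1 sets is thus the high group of the osteoblast list. The part of this difference in the iron genes was not tested. In RNA of whole cultures, fewer cells of a kind and less RNA per cell cannot be told apart.

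Against the incubator, Ireb2 was lower on the platform in the IgG arm. The 3 IgG arrays at 1g and the 3 at 2g all lay below the 3 incubator arrays for Ireb2, as they did for Fth1. Such separation in either direction was found for 15.9% of all genes at 1g and 19.3% at 2g. No member stood apart from the incubator at ug (13% of genes with IgG and 8.07% with E2) or at 1g with E2 (5.51%), nor did any IgG array group at 2g or ug stand apart from 1g (7.96% and 5.63%). The Ireb2 change was -0.42 ± 0.18 (SE, on the log2 scale) at 1g, -0.43 ± 0.18 at 2g and -0.27 ± 0.18 at ug. None passed in limma (adjusted p = 0.802, 0.53 and 0.967), and neither did the mean of the positions (-0.37 ± 0.15, adjusted p = 0.43). In the E2 arm the same mean was -0.14 ± 0.15 for Ireb2. Over both arms, the mean of the positions lay below the incubator in 5 of 6 sets for Ireb2, with E2 3 the exception.

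Tfrc followed the same pattern within sets. The mean of its positions was below the incubator in 5 of 6 sets, again not in E2 3, with set differences from -0.34 to 0.10. As a group difference this was -0.17 ± 0.25 with IgG and -0.15 ± 0.25 with E2, which did not pass. Without the E2 incubator array of number 3 the latter turned to 0.06.

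Hmox1 was higher at ug than in the incubator in 6 of 6 sets, by 0.06 to 0.59. The difference was 0.29 in the IgG arm and 0.39 in the E2 arm, against a standard error of 0.49 without a block. With the set as a block the standard error fell to 0.11, because the large gaps between sets were taken out, and the adjusted p-values were 0.381 and 0.207 in limma. The 1g and 2g positions were above the incubator in 4 of 6 sets each. Without the IgG incubator array of number 3, the difference of group means at ug in the IgG arm turned to -0.07. In the E2 arm it was 0.07 without the ug array of number 3 and 0.84 without the incubator array of that number.

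Steap3 was higher on the platform than in the incubator in 6 of 6 sets when positions were averaged, by 0.03 to 0.13. The share of all genes that agree in as many sets is not given, here or for Ireb2, Tfrc and Hmox1 above. The Steap3 change was 0.10 ± 0.09 with IgG and 0.07 ± 0.09 with E2 (adjusted p = 0.706 and 1). For Slc11a2, Slc39a14 and Aco1 the mean of the positions was within 0.09 of the incubator in every set.

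The ferritin chains moved in opposite directions in the arms at 2g, by small amounts. Fth1 was lower than in the incubator in all 3 IgG sets (-0.05 ± 0.03) and higher in all 3 E2 sets (0.07 ± 0.03). Its group means were 13.53 with IgG and 13.42 with E2 in the incubator, and 13.49 in both arms at 2g. Ftl1 was lower or equal to 2 decimals in all 3 IgG sets (-0.02 ± 0.04) and higher in all 3 E2 sets (0.07 ± 0.04). In the E2 arm both were above the incubator on every 2g array, a separation that 4.79% of all genes showed. The difference between arms was 0.11 ± 0.04 for Fth1 (adjusted p = 0.811) and 0.08 ± 0.05 for Ftl1 (adjusted p = 0.852), from limma's interaction term. These differences use the same incubator arrays as E2 against IgG in the incubator, given below, and are not independent of it. Over the 42 tested genes with a mean level of 13 or more, the median difference between arms at 2g was 0.05, beside -0.01 for all genes. The part of signal level in the ferritin values was not tested.

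No iron gene passed in any of the 15 comparisons that involve positions, without a block or with the set as a block. In these comparisons 0% of all genes passed without a block. With it, 7 genes passed at 1g against C (0.0483%) and 102 for the mean of the positions (0.704%), both in the IgG arm. At an unadjusted p below 0.05 and without a block, 2 of 9 members passed at 1g in the IgG arm (Fth1 and Ireb2), beside 6.11% of all genes. At 2g against C, 1 did in each arm, beside 8.78% of all genes with IgG (Ireb2) and 1.97% with E2 (Fth1). For the mean of the positions 2 did with IgG (Fth1 and Ireb2, beside 9.99%) and 0 with E2 (2.8%). For 2g or ug against 1g, none of the 9 did in either arm.

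**Figure D2:**
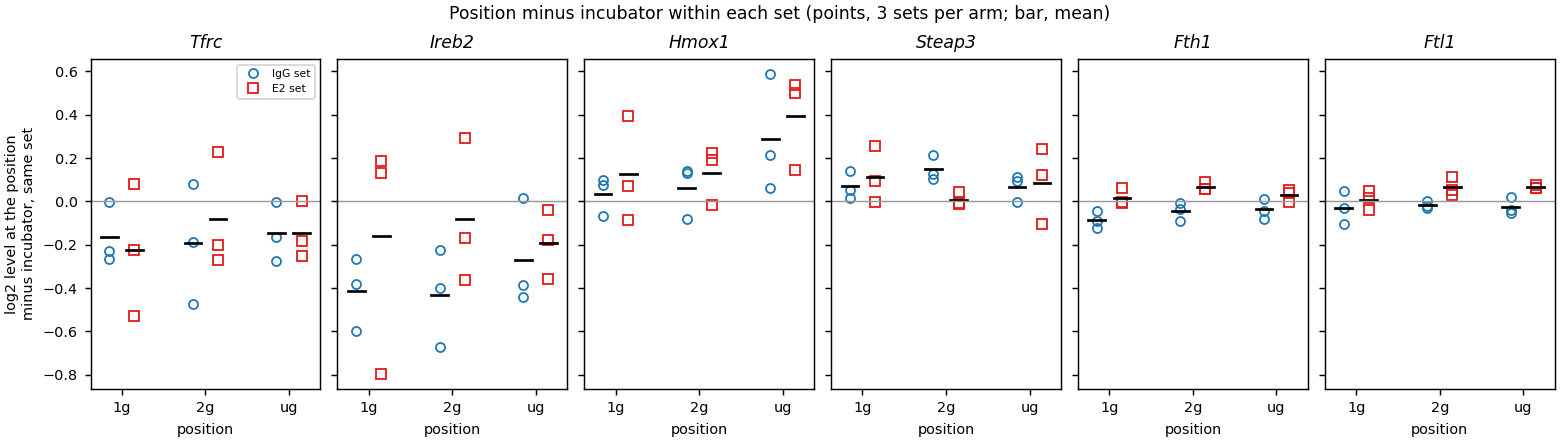
Log2 level at each position minus the incubator within the same set (y axis), by position (x axis), for 6 iron genes; circles are IgG sets, squares E2 sets and bars the mean of 3 sets. Hmox1 at ug is above 0 in 6 of 6 sets, Ireb2 is below 0 in all IgG sets at 1g and 2g, and Fth1 and Ftl1 differ by 0.12 at most.

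Between arms, 1 iron gene passed. Fth1 in the incubator was lower with E2 by a log2 change of -0.11 ± 0.03 (adjusted p = 0.0464 in limma), where 423 of 14489 genes (2.92%) were called and 191 of them (1.32%) were lower. The same contrast was -0.01 ± 0.03 at 1g, 0.00 ± 0.03 at 2g and -0.04 ± 0.03 at ug. The call was lost with the set as a random block (adjusted p = 0.0699), quantile normalization (0.0797), no filter (0.0577), no variance trend (0.125) or only the compared arrays in the fit (0.107). It was also lost when any of 5 incubator arrays was left out: without IgG 1 the adjusted p was 0.118, without IgG 2 0.206, without E2 1 0.0718, without E2 2 0.0764 and without E2 3 0.15. Genes with a mean level of 13 or more had a median change of -0.05 here, beside 0.02 for all genes. This comparison shares the 3 IgG incubator arrays, the highest group for Fth1 and Ireb2, with those of positions against C in the IgG arm.

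Ireb2 lay lower with E2 in each environment, without passing. The change was -0.65 ± 0.18 in the incubator, -0.40 ± 0.18 at 1g, -0.30 ± 0.18 at 2g and -0.58 ± 0.18 at ug. Adjusted p-values were 0.0523, 0.377, 0.953 and 0.299. Over the alternatives the change ran from -0.55 to -0.18 at 1g and from -0.50 to -0.14 at 2g. Arrays of the arms did not overlap for Ireb2 in the incubator, at 1g and at ug, where 35%, 13.3% and 17% of all genes were likewise apart. At 2g no member's arms were apart (9.42%). On set means Ireb2 was 8.46 ± 0.05 with IgG and 7.98 ± 0.20 with E2 (SD, 3 sets each). The exact permutation test gave p = 0.1, the smallest that 3 against 3 allows, and 0.333 after adjustment over 10 genes. Fth1 and the dim Slc40a1 reached the same values in this test, so they do not set Ireb2 apart.

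Tfrc was lower with E2 by 0.40 to 0.57 in the 4 environments, with a standard error of 0.31 and adjusted p-values of 0.27 to 0.953. Set means were 10.63 ± 0.18 with IgG and 10.13 ± 0.54 with E2 (exact permutation p = 0.3). Hmox1 differed by -0.22 to -0.33 with a standard error of 0.49. Slc39a14 was higher with E2 in each environment, by 0.06 to 0.23 ± 0.18, and did not pass. Slc11a2 lay lower with E2 in each, most at 2g (-0.16 ± 0.08, adjusted p = 0.953). Steap3, Ftl1 and Aco1 differed by less than 0.12.

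**Figure D3:**
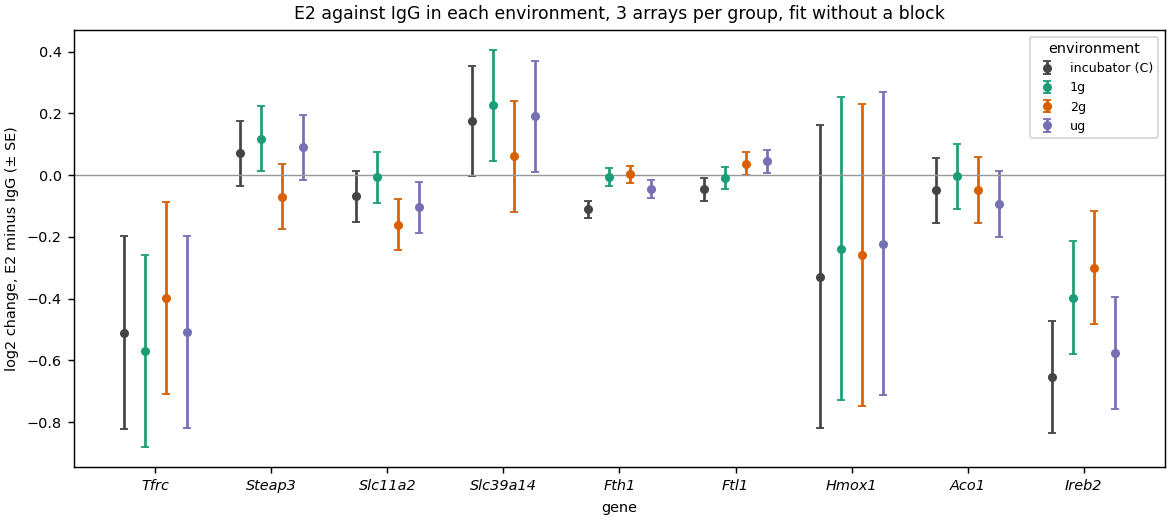
Log2 change, E2 minus IgG (y axis), with its standard error from the fit without a block, for the 9 iron genes tested (x axis) in each environment (colour), 3 arrays per group. Ireb2 and Tfrc lie below 0 in all 4 environments, with standard errors of 0.18 and 0.31, and Fth1 lies at -0.11 in the incubator and within 0.05 of 0 elsewhere.

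The contrast of arms turned on number 3. In its incubator arrays Tfrc was 10.44 with IgG and 10.66 with E2, Hmox1 11.21 and 12.49, Aco1 10.38 and 10.64, and Slc39a14 11.02 and 10.72, each the reverse of numbers 1 and 2. With number 3 left out of both arms, a choice made after the data were seen, 6 iron genes passed in the incubator, beside 29.8% of all genes. Tfrc was then at -0.87 ± 0.13 (adjusted p = 0.000376), Hmox1 at -1.14 ± 0.14, Ireb2 at -0.71 ± 0.17, Slc39a14 at 0.41 ± 0.11, Aco1 at -0.20 ± 0.07 and Fth1 at -0.12 ± 0.03. Under the same choice 4 passed at 1g (25.1% of all genes), 2 at 2g (13.7%) and 5 at ug (23.9%). Tfrc and Hmox1 passed in all 4 environments, Ireb2 and Slc39a14 in 3 of them. Without number 3, IgG and E2 sets lie on opposite sides of the first principal component. These calls therefore cannot tell the antibody from that split of sets. Title numbers also did not pair between arms. With number 1 or number 2 left out in its place, 0 iron genes and 0 of all genes passed in limma in any environment. At an unadjusted p below 0.05 in the incubator, 2 of 9 members then passed without number 1 and 1 without number 2, beside 3027 and 1487 of all genes. The difference of arms and the difference of title numbers cannot be told apart for these genes with 3 sets per arm.

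Tfrc and Ireb2 rose and fell together within sets. With each set's mean removed, their levels correlated at 0.856 over 24 arrays (0.799 with set means kept, as for Hmox1 and Aco1), and 0.676% of tested genes correlated more closely with Tfrc. These arrays share their sets and the same scaling, and removing set means leaves fewer free values than arrays. Both were highest in the incubator array of IgG 2 and E2 1, and lowest in the 1g array of E2 1. Steap3 and Slc11a2, which act in sequence at the endosome, correlated at 0.728 within sets (0.904% of genes correlated more closely with Steap3). Tfrc, on the same route, went the other way, at -0.457 with Steap3 and -0.225 with Slc11a2 within sets. Slc11a2 and Slc39a14 correlated at 0.676 within sets (2.29% of genes correlated more closely with Slc11a2). The ferritin chains correlated at 0.408, which 9.53% of genes exceeded for Fth1. Tfrc and Slc39a14, which bring in iron with and without transferrin, correlated at -0.861 over arrays and at -0.441 within sets.

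**Figure D4:**
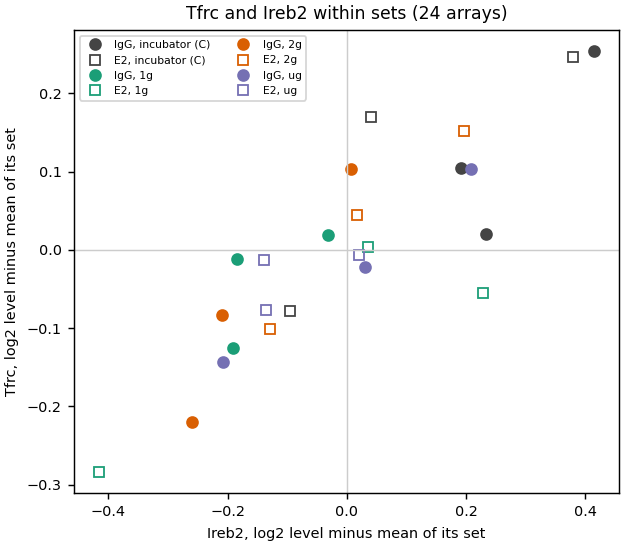
Ireb2 (x axis) against Tfrc (y axis), each as the log2 level minus the mean of its set, on 24 arrays, with colours for environments, filled circles for IgG and open squares for E2. The points rise together (r = 0.856), with the E2 1 array at 1g lowest on both axes.

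Over all 24 arrays, the tested gene most like Tfrc was Dennd10 (Pearson r = 0.986), and for Ireb2 it was Sp3 (0.977). Hmox1 was most like Slc38a7 (0.975), Slc39a14 like Sipa1l2 (0.968), Aco1 like Tmbim6 (0.937) and Steap3 like Rasa3 (0.864). For Slc11a2 it was Vps35l (0.849), for Fth1 Sumo2 (0.828) and for Ftl1 Pdlim1 (0.782). Each is the highest value over all other tested genes, on arrays that share sets, and describes these arrays. Dennd10, for example, read 10.52, 10.19, 10.39 and 10.37 in E2 1 and 10.93, 10.97, 10.97 and 10.85 in E2 3, as Tfrc did on a wider scale.

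Other genes of iron metabolism were read from 8 lists written from textbook knowledge, of which 89 of 98 genes were tested. Without a block limma called 0 of the 89 in any comparison. At an unadjusted p below 0.05, between 0 and 6 passed in 18 comparisons, where 1.12% to 12.9% of all genes did. For E2 against IgG in the incubator 14 passed, beside 29.9% of all genes. In the IgG arm the mean of the positions was below the incubator for 59 of the 89 and above for 30 (median -0.04, beside 0.00 for all genes), and in the E2 arm for 44 and 45 (median 0.00, beside -0.02). NRF2 is a transcription factor of oxidative stress that also drives Hmox1. Its listed targets were lower in 10 of 10 in the IgG arm (median -0.09) and in 6 of 10 in the E2 arm (median -0.01). In the incubator 10 of 10 were lower with E2 than with IgG (median -0.16, beside 0.02 for all genes). That comparison shares its IgG incubator arrays with the first. The share of all genes that were lower is not given beside these counts. Hmox1 itself moved up against C in the same IgG comparison (0.13 ± 0.40), without passing.

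With the set as a block, 0 listed genes and 0% of all genes passed for the mean of the positions in the E2 arm. In the IgG arm 2 of 89 listed genes passed, both lower, beside 0.704% of all genes. Txnrd1, thioredoxin reductase 1 (10365260), changed by -0.19 ± 0.04 (adjusted p = 0.0174). Its incubator arrays read 11.80, 11.70 and 11.31 in IgG 1, 2 and 3, and the highest platform array of each set read 11.55, 11.55 and 11.22, so each set's platform arrays were all below its incubator array. Lpcat3, which puts polyunsaturated acyl chains into phospholipids (10541695), changed by -0.11 ± 0.02 (adjusted p = 0.0462). In the same comparison without a block, Hif1a, the oxygen-regulated factor, was at -0.21 ± 0.09, Acsl4, which activates polyunsaturated fatty acids, at -0.26 ± 0.11, and Sat1, spermidine acetyltransferase, at -0.16 ± 0.07. Ncoa4, the receptor that takes ferritin to lysosomes, was at -0.09 ± 0.06, and Flvcr1, a haem exporter, at -0.19 ± 0.10. None of these 5 passed (adjusted p = 0.452 to 0.618). Higher, and also not passing, were Slc22a17, a lipocalin receptor (0.21 ± 0.10, adjusted p = 0.473), Tmprss6, a protease that restrains hepcidin (0.13 ± 0.07), and Hamp2, a hepcidin gene (0.17 ± 0.13). The other genes of smallest p in their lists (Steap2, Pcbp1, Nfe2l2, Abcg2, Cisd2, Iscu, Txn1 and Gsr) lay between -0.18 and -0.05.

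Between sets, 43 of the 89 listed genes were called, beside 41.9% of all genes. The counts were 8 of 10 for NRF2 targets, 10 of 17 for haem synthesis and transport, 10 of 24 for mitochondrial iron and iron-sulfur clusters, 5 of 11 for uptake, 0 of 5 for storage, 2 of 6 for export, 4 of 9 for regulation and 4 of 7 for defence against lipid peroxides. The median NRF2 target stood at 0.14, 0.18 and -0.17 from its mean over sets in IgG 1, 2 and 3, and at -0.06, -0.21 and 0.14 in E2 1, 2 and 3. The sets in which the NRF2 targets lay above their mean are the 3 sets with high Hmox1. These are also the sets on one side of the first principal component, which held 44.6% of the variance of all tested genes. A part of NRF2 in this was not tested. The medians of the other 7 lists stayed within 0.10 of 0 in every set.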

How the data were processed

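Total RNA (Trizol) was made into biotin-labelled cRNA after an Affymetrix protocol, per the labels, and the deposited log2 intensities of 24 arrays were analysed. That they are log2 was judged from the values. MAS5 is named in the submitters' processing notes, with no role or version. The scaling between arrays is not given in the sources used here. Of 35556 rows, 21789 have 1 gene symbol, 1621 several and 12146 none. The brightest 1-symbol row of each gene was kept, filtered at the 40th percentile on at least 3 arrays.

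The 10 iron genes and all lists were chosen with earlier results of these data known. Group means were fitted over 24 arrays with limma 3.58.1 in R 4.3.3 (moderated variances with a trend, two-sided). P-values were adjusted by Benjamini-Hochberg over 14489 genes within each of 19 comparisons, at a threshold of 0.05. The F test asked whether sets differ within an arm. Named genes are the 10 members, listed genes past the threshold, the 2 genes of smallest p per list in each arm's positions against the incubator (some are printed), and each member's closest gene by Pearson correlation. Txnrd1 and Lpcat3 come from the fit with the block. Title numbers were taken to pair arrays within an arm, because all 36 same-number pairs correlated above 0.1. This comes from the values, not a label. Between arms the 48 same-number pairs lay between -0.748 and -0.0141, so each of the 6 sets is a block level. That block takes up the arms, so E2 against IgG has no blocked fit. The code was tested on simulated data. Precision is limited by the number of arrays.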

Additional observations from a re-analysis of the deposited data

Results flagged for a closer look

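Of 27 pairs of position and gene examined (9 genes, 3 positions), 2 had every set of 1 arm moving one way and every set of the other arm the opposite way. For Fth1 at 2g against the incubator, the E2 change minus the IgG change was 0.113. For Ftl1 at 2g it was 0.0837, and there set IgG 3 hardly moved (-0.00025). The share of all genes with such a pattern is not given, so these flags do not set the iron genes apart. The interaction term in limma passed for neither (adjusted p = 0.811 and 0.852, and 0.334 and 0.438 with the set as a block). The Fth1 means were 13.49 in both arms at 2g, and 13.53 with IgG and 13.42 with E2 in the incubator. Its flag is therefore not independent of the incubator contrast of E2 against IgG.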

How the results depend on the processing

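The iron genes' counts stayed at 0 without a block in the 18 comparisons other than E2 against IgG in the incubator, under every alternative run but the added one named last. There the count of 1 (Fth1) fell to 0 with sets as random blocks (consensus correlation 0.355), quantile normalization, no filter on dim rows, no variance trend and only the arrays compared, and ranged from 0 to 1 when arrays were left out (the 1 without the E2 array of number 1 was Ireb2). With the number as a replicate block over all arrays it stayed at 1 (adjusted p = 0.0488). Over all alternatives Fth1 lay between -0.12 and -0.10, with adjusted p from 0.0123 to 0.485. The replicate block within arm changed no call of an iron gene (lowest adjusted p 0.116). Leaving out arrays gave -0.0693 to 0.522 for Hmox1 at ug against C with IgG, where -0.0693 came without the incubator array of number 3. It gave 0.0686 to 0.843 for the same gene and comparison with E2. It gave -0.300 to 0.0585 for Tfrc at the positions against C with E2, where 0.0585 came without the E2 incubator array of number 3. In these 2 values the direction reversed. Leaving out a title number in both arms was added after seeing the data. Numbers 2 and 3, or 1 and 3, gave 0 in all 4 environments. Numbers 1 and 2 gave 6, 4, 2 and 5 in C, 1g, 2g and ug, where the arms coincide with the sides of the first principal component. Of 345 values of single genes, 323 kept direction and side of the threshold, 20 changed side and 2 reversed.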
